A study of Danio rerio with 8 samples.

Results

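The zebrafish miR-153 and miR-135 families were followed through every array of the study, with 6 of the 248 zebrafish miRNA probes on the chip. The members were dre-miR-153a, dre-miR-153b, dre-miR-153c, dre-miR-135a, dre-miR-135b and dre-miR-135c, taken by probe name without star forms. They were picked because members gave strong signals on most arrays and a low signal on 1 treated array, so the levels and the treated-to-control contrast below describe that choice and are not tests of it. Total RNA came from whole zebrafish embryos at 72 hours post-fertilisation (hpf). Embryos of the MC-RR group had been injected in the yolk at early cleavage with microcystin-RR, a cyclic peptide toxin of bloom-forming cyanobacteria, and control embryos with saline. Each group gave 4 arrays, described by the submitters as biological replicates, and each array took 1 sample labelled with 1 dye (Cy5). The study kept AB wild-type fish and the line Tg-(flk:GFP), which it used to view blood vessels. Which of these gave the embryos for the arrays, and how many embryos each sample pooled, were not given in the sources used here.

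MicroRNAs are short RNAs that bind partly complementary sites in mRNAs, mainly through the seed at bases 2 to 8, and lower the output of those mRNAs. miR-153 is known from neurons. In human and mouse its genes lie within PTPRN and PTPRN2, which encode membrane proteins of dense-core secretory vesicles, and in zebrafish it acts on snap25, a protein of synaptic vesicle release. miR-135 is known in mouse from serotonergic neurons, where it acts on the serotonin transporter and on a serotonin receptor, and in human colorectal cells it acts on APC, a negative regulator of Wnt signalling. The arrays measured whole embryos, so a brain origin of the signal could not be checked, and fewer cells of a type could not be told apart from less RNA per cell.

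The mature sequences are shown as the chip lists them, 5′ to 3′ with the seed in capitals, because the members of each family differ by only 1 or 2 bases and yet gave unlike signals.
dre-miR-153a: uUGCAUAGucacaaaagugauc
dre-miR-153b: uUGCAUAGucacaaaaaugagc
dre-miR-153c: uUGCAUAGucacaaaaaugauc
dre-miR-135a: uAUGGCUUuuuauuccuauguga
dre-miR-135b: uAUGGCUUuuuauuccuaucug
dre-miR-135c: uAUGGCUUucuauuccuaugug
Counted from 1 at the 5′ end, dre-miR-153a differed from dre-miR-153c at G17A, and dre-miR-153b differed from dre-miR-153c at G21U. dre-miR-135a differed from dre-miR-135c at U10C and from dre-miR-135b at G20C over the shared length, and is longer by 1 base at its 3′ end. Each seed was carried by 3 of the 248 probes, which were the members of its own family. The members held between 30.4% and 36.4% G and C, against a median of 43.5% over the 248 probes. Probes so alike can share signal.

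The genomic surroundings were also shared within the miR-153 family. In the RefSeq annotation of assembly GRCz12tu, 7 precursor genes matched the 6 members, since dre-miR-135c has a pair of precursors. The precursor of dre-miR-153a overlapped the span of ptprn2, that of dre-miR-153b ptprnb and that of dre-miR-153c ptprna. Overlap was taken without regard to strand. These genes are the zebrafish counterparts of the human hosts. For miR-135, mir135c-1 overlapped sox13 and blacat1, mir135c-2 overlapped lemd1, and the precursors of dre-miR-135a and dre-miR-135b overlapped no protein-coding gene. Positions are not printed because the files name no genome build.

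Each spot of the deposited scanner output has a mean pixel intensity. A probe is printed in 10 spots, and 190 spots are blank. The median over zebrafish probes ranged from 199 to 375 in controls and from 106 to 384 with MC-RR, and MC-RR replicate 2 was the dimmest array. The 95th percentile of the blank spots, used as the limit of detection, was 528 on control replicate 4 and between 49.8 and 187 on the other arrays. A normalized log2 signal is given below, obtained from the intensities by background correction with an offset of 50 and cyclic loess between arrays. The offset compresses differences of dim probes, and the small number of arrays limits the precision of every mean.

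dre-miR-153c gave a strong signal on 7 arrays and lost most of it on 1. Its normalized log2 signal was 10.90, 11.06, 11.12 and 11.72 on control replicates 1 to 4. On MC-RR replicates 1 to 4 it was 11.02, 7.96, 11.08 and 11.63. MC-RR replicate 2 alone was low, while the other 3 MC-RR arrays lay within the range of the controls. On MC-RR replicate 2 the signal deviated by -3.25 from the mean of the other 7 arrays on the log2 scale, which is 9.54-fold lower, and was 8.56-fold below control replicate 2.

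dre-miR-153a followed the same course, with a smaller deviation after normalization. The controls, in the order of their replicate numbers, read 9.17, 9.37, 8.84 and 9.72. The MC-RR arrays read 9.19, 7.23, 9.0 and 9.39. Again MC-RR replicate 2 was the low array, 4.03-fold below the mean of the other 7, and the other MC-RR arrays lay among the controls. The mean intensity of dre-miR-153a there was 77.7, against a blank percentile of 55.8, so background and offset limit the size of its drop. With plain subtraction of the blank median the deviations on that array were -3.59 for dre-miR-153a and -3.80 for dre-miR-153c. dre-miR-153b, which differs from dre-miR-153c by 1 base, was close to its other values after normalization. The controls read 9.14, 9.08, 8.87 and 10.21, and the MC-RR arrays 9.32, 8.79, 8.79 and 9.22. MC-RR replicates 2 and 3 were level for dre-miR-153b, and the highest value was on control replicate 4, the array with the bright blank spots. On MC-RR replicate 2 its deviation from the mean of the other 7 arrays was -0.45. All 3 miR-153 probes exceeded the blank percentile on 8 of 8 arrays. The margin of dre-miR-153a was small on control replicate 4, at 568 against 528, with 5 of 10 spots above the percentile.

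**Figure D1:**
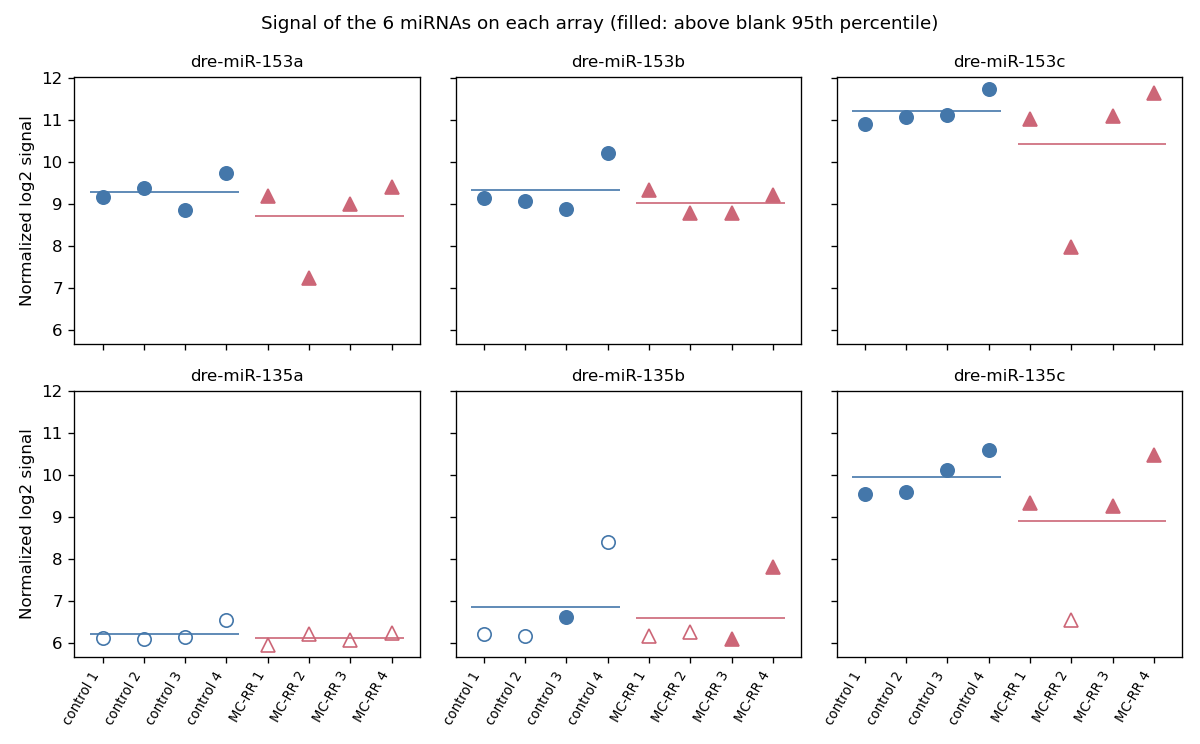
Normalized log2 signal (y axis) of each of the 6 miRNAs on the 4 control arrays (blue circles) and 4 MC-RR arrays (red triangles), 1 point per array, with filled symbols above the blank 95th percentile and lines at group means. dre-miR-153a, dre-miR-153c and dre-miR-135c drop on MC-RR replicate 2, where dre-miR-153b stays at 8.79.

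Before any correction, the single spots of all 3 miR-153 probes were dimmer on MC-RR replicate 2 than on any other array, by different amounts. The 10 spots of dre-miR-153c did not exceed 180 on MC-RR replicate 2, whereas no spot of that probe was under 1809 on any other array. For dre-miR-153a the brightest spot on MC-RR replicate 2 was 94.7, against a dimmest spot of 458 elsewhere. For dre-miR-153b the brightest spot there was 330 and the dimmest elsewhere 448, on an array that was dim as a whole. Without normalization the deviation of dre-miR-153b on MC-RR replicate 2 was -1.24, against -0.45 with it. The coefficient of variation among the 10 spots on MC-RR replicate 2 was 10.7% for dre-miR-153a, 12.3% for dre-miR-153b and 9.23% for dre-miR-153c, within the range of the same probes on the other arrays. The loss was thus shared by all spots of a probe. The spots of dre-miR-153b lie in the rows of the chip directly between those of dre-miR-153a and dre-miR-153c, for example rows 12 to 14. The same holds in each of the 4 sets of rows that carry the 10 spots of each probe.

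In the deposited normalized table, which was background-subtracted and scaled by the service provider, the intensity of dre-miR-153c on MC-RR replicate 2 was 247 and ran from 1956 to 3368 on the other arrays. That of dre-miR-153a was 112 there and between 411 and 672 elsewhere. dre-miR-153b was 519 on MC-RR replicate 2, inside its range of 395 to 1007 on the other arrays.

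**Figure D2:**
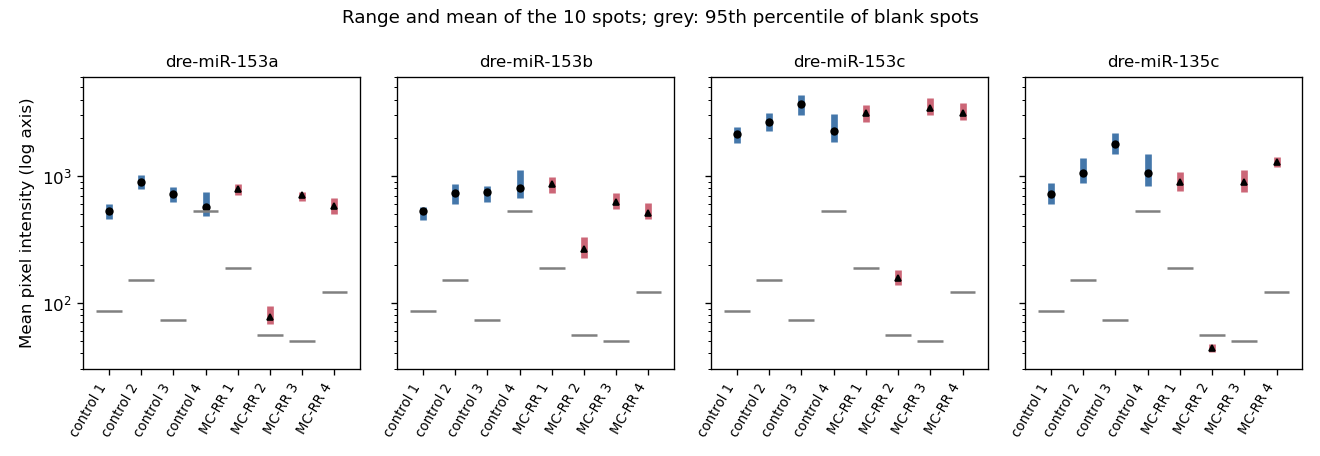
Mean pixel intensity on a log axis (y) for the 10 spots of 4 miRNAs on each array, as a bar from the lowest to the highest spot with a black symbol at the mean, and a grey line for the blank percentile. On MC-RR replicate 2, spots of dre-miR-135c end at 47.7, under the blank percentile of 55.8.

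In the miR-135 family, dre-miR-135c alone gave a signal well above the blank spots. The controls read 9.55, 9.59, 10.12 and 10.60, and the MC-RR arrays 9.35, 6.57, 9.27 and 10.49. MC-RR replicate 2 was again the low array, and MC-RR replicates 1 and 3 were also a little under the lowest control. dre-miR-135c exceeded the blank percentile on 4 of 4 control arrays and on 3 of 4 MC-RR arrays. On MC-RR replicate 2 its mean intensity was 44.3, against a blank percentile of 55.8, and no spot of it reached that percentile. The deviation of -3.28 from the mean of the other 7 arrays is therefore limited by the background and by the offset. In the deposited normalized table its intensity there was 14.6, against 556 to 1351 on the other arrays.

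dre-miR-135a and dre-miR-135b were near or below the limit of detection, although the members had been picked as strong. dre-miR-135a exceeded the blank percentile on 0 of 8 arrays, and its normalized signal lay between 5.96 and 6.56. It carries the same seed as dre-miR-135c and differs from it by 1 base and by length. dre-miR-135b exceeded the percentile on 3 arrays, namely control replicate 3 (6.62), MC-RR replicate 3 (6.12) and MC-RR replicate 4 (7.82). Its highest signal, 8.41, was on control replicate 4, where its intensity of 269 stayed under the blank percentile of 528. No change can be read from these 2 probes on MC-RR replicate 2, since neither was above the blank percentile there.

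The MC-RR group was also set against the control group. As the members were chosen by a low treated array, this describes the choice and does not test an effect of the toxin. Probes above the blank percentile on 4 or more of the 8 arrays entered the fit. These were 187 of the 248 probes and 4 of the 6 members. dre-miR-135a and dre-miR-135b did not pass and are given from a fit over all 248. The mean signal of dre-miR-135c was 9.97 ± 0.50 (SD, n = 4) in the control group and 8.92 ± 1.66 (SD, n = 4) in the MC-RR group, a log2 fold change of -1.05 with a standard error of 0.75. For dre-miR-153c the control mean was 11.20 ± 0.36 (SD, n = 4) and the MC-RR mean 10.42 ± 1.66 (SD, n = 4), a log2 fold change of -0.78 with a standard error of 0.74. The SD of both within the MC-RR group was larger than the difference between the groups.

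dre-miR-153a had a log2 fold change of -0.57 with a standard error of 0.47, and dre-miR-153b one of -0.30 with a standard error of 0.31. Without control replicate 4, where dre-miR-153b was highest, the latter was -0.00. With all arrays the log2 fold changes of dre-miR-135a and dre-miR-135b were -0.11 and -0.26. Without control replicate 4 they were 0.00 and 0.26. In all 6 the groups overlapped. The 4 tested members all had a log2 fold change under 0, as did 53.5% of the tested miRNAs. In limma, 0 of the 4 tested members had an unadjusted p under 0.05, where 8.56% of the 187 tested miRNAs did, and 0 of the 187 passed after adjustment. Groups did not overlap for 0 of the 4 members and for 3.21% of the tested miRNAs. Since the members were chosen on this contrast, nothing is read from these counts.

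Without MC-RR replicate 2, the log2 fold change of dre-miR-153c was 0.04 with a standard error of 0.26 (95% interval -0.55 to 0.63), and that of dre-miR-153a was -0.08 with a standard error of 0.24. dre-miR-135c was at -0.27 with a standard error of 0.38, and dre-miR-153b at -0.22 with a standard error of 0.33. A log2 fold change under 0 was then left in 3 of the 4 tested members and in 50.3% of the tested miRNAs. Leaving out the lowest treated array raises the treated mean by construction. In that fit 0 of the 4 tested members and 8.02% of the 187 had an unadjusted p under 0.05 in limma. The 95% interval of dre-miR-135c ran from -1.15 to 0.62. As the array left out was chosen by its low values, nothing is read from these intervals.

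**Figure D3:**
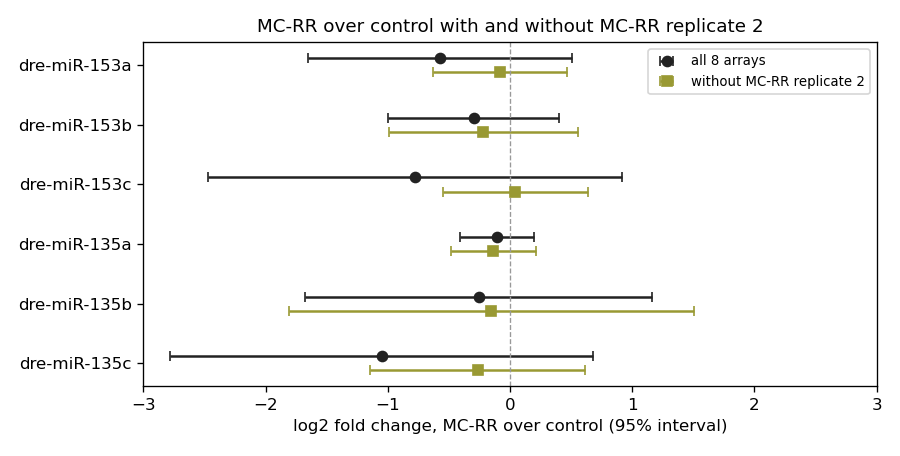
Log2 fold change between the groups (x axis, MC-RR minus control) with its 95% interval from limma for each of the 6 miRNAs, with all 8 arrays (black circles) and without MC-RR replicate 2 (olive squares). dre-miR-153c moves from -0.78 to 0.04 and dre-miR-135c from -1.05 to -0.27, while dre-miR-153b changes little, from -0.30 to -0.22.

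Arrays of the same replicate number can be set side by side, as the submitters describe treated and control embryos as paired. dre-miR-135c had log2 differences, MC-RR minus control, of -0.20, -3.02, -0.85 and -0.12 in pairs 1 to 4. In pair 2 its signal on the MC-RR array was not above the blank percentile. The differences of dre-miR-153c were 0.13, -3.10, -0.04 and -0.09, so that pair 2 alone stood apart. Those of dre-miR-153a were 0.03, -2.15, 0.16 and -0.33. For dre-miR-153b they were 0.18, -0.29, -0.08 and -0.996, lowest in pair 4. When limma took the pair as a block, 0 of the 4 members had an unadjusted p under 0.05, against 16% of the 187 (30 miRNAs), and 0 of the 187 passed after adjustment.

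The members of 1 family were then compared with each other within each array. The rule did not use these differences, but they come from the arrays and the contrast that chose the members, so their tests support nothing beyond the values. The log2 signal of dre-miR-153c minus that of dre-miR-153b was between 1.51 and 2.41 on 7 arrays and -0.82 on MC-RR replicate 2. Signals of different probes have no common zero, so the distance from the other arrays is what these values show, and it restates in part the low value that chose the members. dre-miR-153a minus dre-miR-153b lay between -0.49 and 0.30 on the 7 arrays and was -1.56 on MC-RR replicate 2. dre-miR-153c minus dre-miR-153a, between 1.69 and 2.28 elsewhere, was 0.74 there. As dre-miR-153a was near the background on that array, the size of the shift in each difference that holds dre-miR-153a is limited by it.

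Between the groups these differences did not pass a test. An outlying array falls in either group in every split, so this test cannot detect a shift confined to a single array. Nothing is read from its p. dre-miR-153c minus dre-miR-153b was 1.87 ± 0.31 (SD, n = 4) in the control group and 1.40 ± 1.51 (SD, n = 4) in the MC-RR group. The change of -0.48 gave p = 0.83 (exact permutation test, two-sided). Over the 6 pairs of members within families, the exact p was between 0.343 and 0.83, and 0.83 for each after Benjamini-Hochberg adjustment over the 6. The smallest p that 4 arrays against 4 allow is 0.0286. Without MC-RR replicate 2, all 3 differences within miR-153 turned positive, at 0.14, 0.26 and 0.12, with an adjusted exact permutation p of 0.926. Of the 3 pairs within miR-135, each holds dre-miR-135a or dre-miR-135b and so rests on values near the background.

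**Figure D4:**
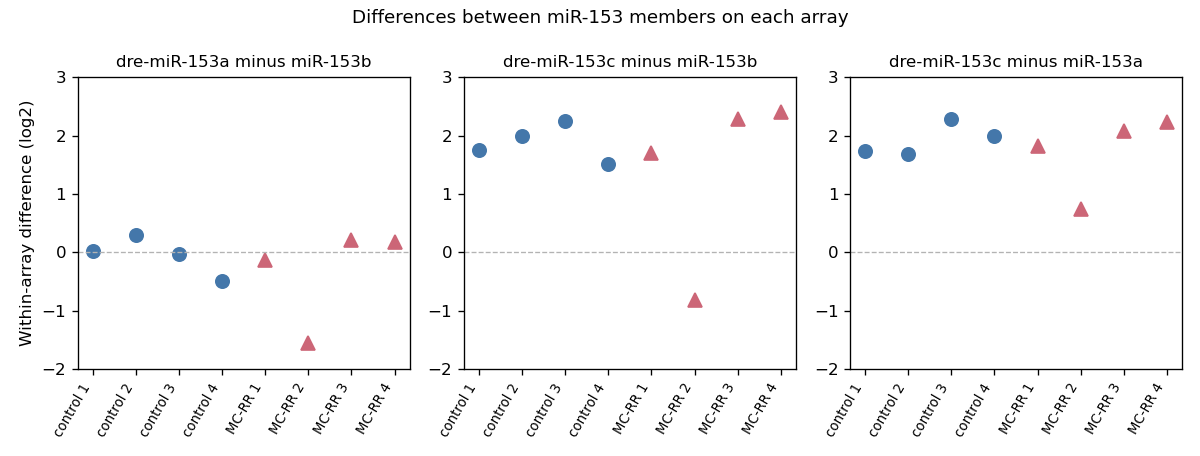
Difference in normalized log2 signal between 2 members of miR-153 on the same array (y axis), for each of the 4 control (blue circles) and 4 MC-RR arrays (red triangles), with a dashed line at 0. MC-RR replicate 2 lies apart in all 3 panels, at -1.56, -0.82 and 0.74.

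Signals of other miRNAs on MC-RR replicate 2 were set beside those of the families. On this array 25 of the 187 tested miRNAs, or 13.4%, lay at least 1 below the mean of the other 7 arrays on the log2 scale, among them 3 of the 4 tested members, and 10 lay at least 3 below. On the other arrays between 0 and 10 miRNAs lay at least 1 below, with none of the members. Counted from the lowest deviation among the 187, dre-miR-153c ranked 8, dre-miR-153a ranked 11 and dre-miR-153b ranked 46. dre-miR-135c ranked 7, but its signal there was not above the blank percentile, so its deviation and rank depend on the background correction. On this array dre-miR-454a (6.47), dre-miR-194b (6.50), dre-miR-181a* (6.53), dre-miR-219 (6.54) and further tested miRNAs had normalized signals under its 6.57. The background can limit their deviations too. The median over the tested miRNAs was -0.02. Normalization centres the arrays on each other, and on every array this median lay between -0.02 and 0.03. The members just inside and just outside the low set were dre-miR-153a at -2.01 and dre-miR-153b at -0.45. Across probes, the highest Spearman's rho of its scanner values with the deposited normalized values of another array was 0.87. For the other 7 arrays the same measure was 0.96 to 0.99. The part that the quality of MC-RR replicate 2 had in the deviations of the members was not tested.

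After normalization, other neural miRNAs were near their usual level on MC-RR replicate 2 in the median. This level is relative to the centre of the array, which was dim as a whole before normalization. All 12 probes of this list were tested, their median deviation was 0.05, and 2 of them lay at least 1 below the other arrays, dre-miR-219 at -1.44 and dre-miR-7a at -1.07. The 3 with the highest mean signal were level there, with deviations of 0.04 for dre-miR-9, which acts in neural progenitors, 0.17 for dre-miR-218a, known from motor neurons, and 0.09 for dre-miR-128, a brain miRNA. Over the MC-RR and control arrays, 0 of the 12 had an unadjusted p under 0.05 in limma in either direction, and 0 after adjustment. The median log2 fold change of the list was -0.27, and 9 of 12 were below 0, against 53.5% of all tested miRNAs. At that threshold 8 of the 187 tested miRNAs were higher and 8 lower, and their median log2 fold change was -0.06. Without MC-RR replicate 2 the median of the neural list was -0.34, against -0.002 over all tested miRNAs.

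Single miRNAs of other tissues were as low as the members on MC-RR replicate 2. In the muscle list, 3 of 6 tested miRNAs lay at least 1 below the other arrays, with a median of -1.17. The deviation was -4.91 for dre-miR-1, -0.96 for dre-miR-206 and 0.33 for dre-miR-499, all known from muscle. In the epidermal and epithelial list, 2 of 9 did so, with a median of 0.12. It was -5.59 for dre-miR-203a, a miRNA of skin, and -3.45 for dre-miR-205, but 0.14 for dre-miR-203b, whose name places it in the family of dre-miR-203a. Of the blood list, 3 of 7 probes passed the detection filter and 0 of them lay at least 1 below. Their deviations were 0.19 for the erythroid dre-miR-451, 0.15 for dre-miR-150 of lymphocytes and -0.75 for the myeloid dre-miR-223. The summed linear signal of the muscle list was 12356 to 27408 in controls and 7140 to 15778 with MC-RR. That of the neural list was 38846 to 67446 in controls and 19082 to 47143 with MC-RR, and 39561 on MC-RR replicate 2. The epidermal and epithelial list summed to 22756 to 26263 in controls and 18228 to 26082 with MC-RR, and the blood list to 1008 to 2369 and 1322 to 4726. All 187 tested miRNAs summed to 222106 to 263742 in controls and 190881 to 242462 with MC-RR. MC-RR replicate 2 had the lowest sum of the MC-RR group for all tested miRNAs and for the muscle, epidermal and blood lists, but not for the neural list. The neural sum mostly reflects 1 miRNA, dre-miR-9. Its log2 signal was 14.9 on MC-RR replicate 2 and 13.4 on MC-RR replicate 1, against 11.6 and 11.4 for dre-miR-218a. In none of the 4 lists did a miRNA have an unadjusted p under 0.05 in limma, with all arrays or without MC-RR replicate 2. The part of a change in tissue composition in the signal of the members was not tested.

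**Figure D5:**
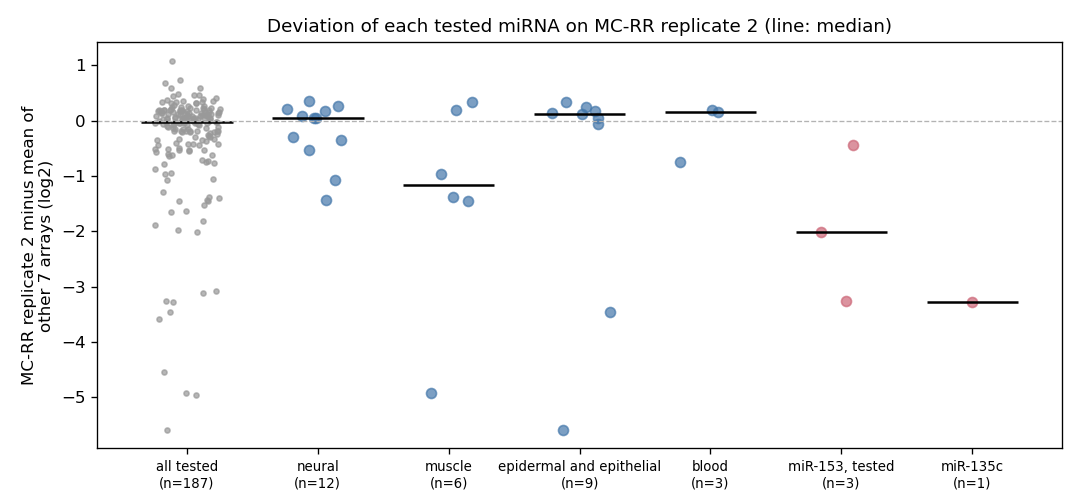
Normalized log2 signal on MC-RR replicate 2 minus the mean of the other 7 arrays (y axis) for all 187 tested miRNAs, the 4 marker lists and the tested members, 1 point per miRNA with a line at the median. dre-miR-135c (-3.28), dre-miR-153c (-3.25) and dre-miR-153a (-2.01) lie in the lower tail, and the neural list has a median of 0.05.

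The miRNAs whose course over the 8 arrays was most like the mean of the 3 miR-153 probes were dre-miR-454a, dre-miR-1 and dre-miR-203a, with a Pearson's r of 0.95, 0.95 and 0.95 over 8 arrays. All were low on MC-RR replicate 2, at 6.47, 7.41 and 6.79, which the choice by r favours, and without that array r was 0.66, 0.63 and 0.68. Their seeds differ from that of miR-153. For the mean of the 3 miR-135 probes they were dre-miR-194b, dre-miR-365 and dre-miR-181a*, with r of 0.90, 0.89 and 0.89, and 0.98, 0.93 and 0.81 without MC-RR replicate 2. That mean holds 2 probes near the background. The 8 points share the array, its background and its normalization. Between members, r over the 8 arrays was 0.98 for dre-miR-153c with dre-miR-135c, 0.97 for dre-miR-153a with dre-miR-153c and 0.49 for dre-miR-153b with dre-miR-153c. Without MC-RR replicate 2 these values were 0.88, 0.70 and 0.69.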

How the data were processed

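Chips were hybridized, scanned and digitized by a company for the authors, with 1 sample per chip. The deposited scanner output holds linear intensity values without background subtraction or normalization. A second deposited table holds background-subtracted, LOWESS-normalized intensity values, 1 per probe, and its columns had a Spearman's rho of 0.999 to 1.00 with the scanner values of their own array across probes.

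In R 4.3.3 with limma 3.58.1, intensities were corrected by normexp on the foreground (offset 50), log2-transformed, averaged over 10 spots and normalized by cyclic loess over 248 probes. MC-RR and control were compared with lmFit and eBayes on the 187 detected probes, with Benjamini-Hochberg adjustment, and differences within families by exact permutation. Arrays of one replicate number deviated together (correlations of 0.58, 0.29, 0.53 and 0.78 over 187 miRNAs), and the submitters call the embryos paired, so the block was run beside the unblocked fit. The methods name a two-tailed t-test without pairing.

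The members and lists were chosen with earlier results of these data known. Named miRNAs are the members, the 3 most correlated with each family mean, and the 3 with the highest mean signal of each list. dre-miR-219, dre-miR-7a and the other members of pairs were named after their values were seen. The list values without MC-RR replicate 2 were also chosen after the data were seen. Chip and scan batches were not given in the sources used here.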

Additional observations from a re-analysis of the deposited data

Results flagged for a closer look

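Within a group of 4 arrays, a value was taken up here if its gap to the nearest other array, as a share of the range of the group, passed Dixon's 95% critical value. Chance gives this in about 1 of 20 groups. Values taken up were of members, of differences within families or of the miRNAs most like each family. Marker-list miRNAs outside these, such as dre-miR-205 (8.28 on MC-RR replicate 2), were not taken up. On MC-RR replicate 2, dre-miR-153c stood apart at 7.96, against 11.02 to 11.63 on the other MC-RR arrays, and this array chose the members. The chance rate does not apply to values chosen in this way. The 3 miRNAs most like miR-153 also stood apart on the same array, with 6.79 for dre-miR-203a, 6.47 for dre-miR-454a and 7.41 for dre-miR-1. They had been picked by their correlation with miR-153, which the same array dominates, so their low values restate that choice.

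The other values taken up lay on the replicate 4 arrays. dre-miR-135a was 6.56 on control replicate 4, against 6.10 to 6.15 on the other controls, without exceeding the blank percentile. dre-miR-135b was 7.82 on MC-RR replicate 4, against 6.12 to 6.28 on the other MC-RR arrays. dre-miR-135c minus dre-miR-135b was 2.19 on control replicate 4, against 3.32 to 3.50. dre-miR-135b minus dre-miR-135a was 1.57 on MC-RR replicate 4, against 0.04 to 0.22. On the same array dre-miR-194b was 7.31 and dre-miR-365 was 7.44. They had been picked by their correlation with the miR-135 mean, which holds dre-miR-135b. Their values thus restate that choice in part.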

How the results depend on the processing

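No member had an unadjusted p under 0.05 in limma under any alternative run. The alternatives tested 4 members, except that 3 were tested, without dre-miR-135c, when a probe had to exceed the blank percentile on all 8 arrays, and 6 without the detection filter. The number of tested miRNAs under 0.05 was 16, and it was 3 without normalization and 30 with the replicate block. With each array left out it ran from 7 to 18. It was 10 without control replicate 2, 7 without control replicate 3 and 10 without MC-RR replicate 1. Of these miRNAs 8 of 16 were higher with MC-RR, 9 of 12 with quantile normalization, 9 of 11 with median scaling, 3 of 3 without normalization, 5 of 11 with plain subtraction of the blank median, 8 of 12 on the deposited normalized table and 11 of 30 with the block. The methods' t-test, without pairing, gave 16 of 187 and 0 after Benjamini-Hochberg adjustment. Over the tested miRNAs the log2 fold change had a median of -0.06, and of 0.10 with median scaling, 0.05 with quantile normalization, 0.06 on the deposited table and -0.11 without normalization. The log2 fold changes of the 4 tested members stayed under 0 under each of these scalings, and that of dre-miR-135a turned to 0.08 with median scaling. After adjustment 1 miRNA, not a member, passed with an offset of 1 and on the deposited table. The difference of dre-miR-153c minus dre-miR-153a between groups was -0.20 and turned to 0.24 with plain subtraction. With each array left out, dre-miR-153a minus dre-miR-153b ran from -0.45 to 0.14, dre-miR-153c minus dre-miR-153b from -0.82 to 0.26 and dre-miR-153c minus dre-miR-153a from -0.38 to 0.12, each highest without MC-RR replicate 2. dre-miR-135b minus dre-miR-135a ran from -0.52 to 0.26, highest without control replicate 4. The cause of these turns was not tested. The deviation of dre-miR-153c on MC-RR replicate 2 ran from -4.03 to -2.84 over the alternatives without the block. That of dre-miR-153a ran from -3.59 to -1.61, that of dre-miR-153b from -1.24 to -0.04 and that of dre-miR-135c from -9.17 to -2.88. With the block, the difference in pair 2 was set against the mean of the other pairs. This gave -2.10 for dre-miR-153a, 0.01 for dre-miR-153b, -3.10 for dre-miR-153c and -2.63 for dre-miR-135c. The lowest deviation of dre-miR-135c was with plain subtraction, where it rests on the floor. The log2 fold change of dre-miR-135c was -2.78 there. No change can be read for dre-miR-135a, which was not above the blank percentile on any array, or for dre-miR-135b on 5 of 8. For dre-miR-135c on MC-RR replicate 2 a drop can be read, but not its size. Its brightest spot there was 47.7, under the blank percentile, against a dimmest spot of 598 on the other arrays.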
